A study of Drosophila melanogaster with 596 samples.

Results

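The muscle sarcomere genes were a set of 33 genes of *Drosophila melanogaster*, chosen by their known products: myosins and other thick filament proteins, actins, tropomyosins, troponins, giant and Z-disc proteins, and calcium handling proteins of muscle. The choice was made with earlier results of these data known. The whole table held 7422 genes, and 31 of the 33 had at least 1 row in it. TpnC47D, a troponin C, and Mlp60A, a muscle LIM protein, had no row and were not analysed here. The 31 genes had 87 distinct transcript rows once identical rows were collapsed, against 9142 distinct rows in all. Of these genes 20 had 1 distinct row and 11 had several, and a gene's value was the mean of its distinct rows.

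Expression was measured in heads of adult females from 596 crosses, each between a female of a recombinant inbred line of population A and a male of one of population B, so that the flies measured were heterozygous F1. Crosses of pA1 x pB2 made up 63.4% of the 596 and crosses of pA2 x pB1 the other 36.6%, where the digit names the subpopulation from which the lines came. The flies were 3 to 5 days old, and the labels give a pool of about 300 heads per sample. The table holds 1 set of values per cross. By the methods 2 of the pA1 x pB2 crosses had a second, independent preparation, and how those preparations were combined is not given in the sources used here. The lines are inbred descendants of a few founder strains per population, and a cross here is 1 genotype.

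In a sarcomere, thick filaments of myosin slide along thin filaments of actin that are anchored at the Z-disc. Calcium released from the sarcoplasmic reticulum binds troponin C and moves the troponin and tropomyosin complex off the myosin binding sites of actin. Insects make different isoforms and paralogs of these proteins in different muscles. The head holds muscles of the proboscis and pharynx, whereas the indirect flight muscles, in which Act88F, flightin and TpnC4 are the best known special components, lie in the thorax.

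The values were normal-quantile scores, set by the authors for each transcript over all crosses, so a score gives the position of a cross in the order of the 596 crosses and not a level. Scores of all rows lay between -3.15 and 3.15, and the SD of a row lay between 0.983 and 1.01. No gene's level can therefore be set against another's, the labelled tissue could not be checked by the level of its markers, and signal over background could not be read from the scores. The authors' own cutoff on expression level is given with the processing below. Subpopulation and 10 principal components had already been removed, so that the mean difference between the subpopulation crosses (pA1 x pB2 minus pA2 x pB1) lay between -0.0256 and 0.0218 in the 31 genes by construction and was not tested. What could be measured was which of these genes were high and low in the same crosses. In pooled heads, fewer muscle cells and less RNA per muscle cell cannot be told apart. Array and hybridisation batch are not in the labels, and their part in any association below was not tested. The median score of a cross over all rows lay between -0.277 and 0.637.

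Many of the sarcomere genes were high and low in the same crosses. Among the pairs that the 31 genes can form, 80 (17.2%) had a Pearson r of at least 0.3, against 0.338% of all 27539331 gene pairs in the table. The median r of these gene pairs was 0.13, against 0.003 over all gene pairs. The pairs ranged from -0.25, for flightin and alpha-actinin (fln and Actn), to 0.69, for paramyosin and alpha-actinin (Prm and Actn), and 65 pairs had an r below 0. These shares describe the table and were not tested, since the pairs share genes and crosses.

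The mean score of the 31 genes spread from -1.24 to 1.25 over the crosses, with an SD of 0.401. It ran from -1.24 to 1.25 in the pA1 x pB2 crosses and from -1.17 to 1.12 in the pA2 x pB1 crosses. In the cross with the lowest mean, 30 of the 31 genes were below 0, and in the cross with the highest mean 27 of the 31 were above 0. These crosses were picked by the mean of the same genes, so counts of this kind are largely built in. The share of all genes below or above 0 in them was not computed. Both crosses were of pA1 x pB2.

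**Figure D1:**
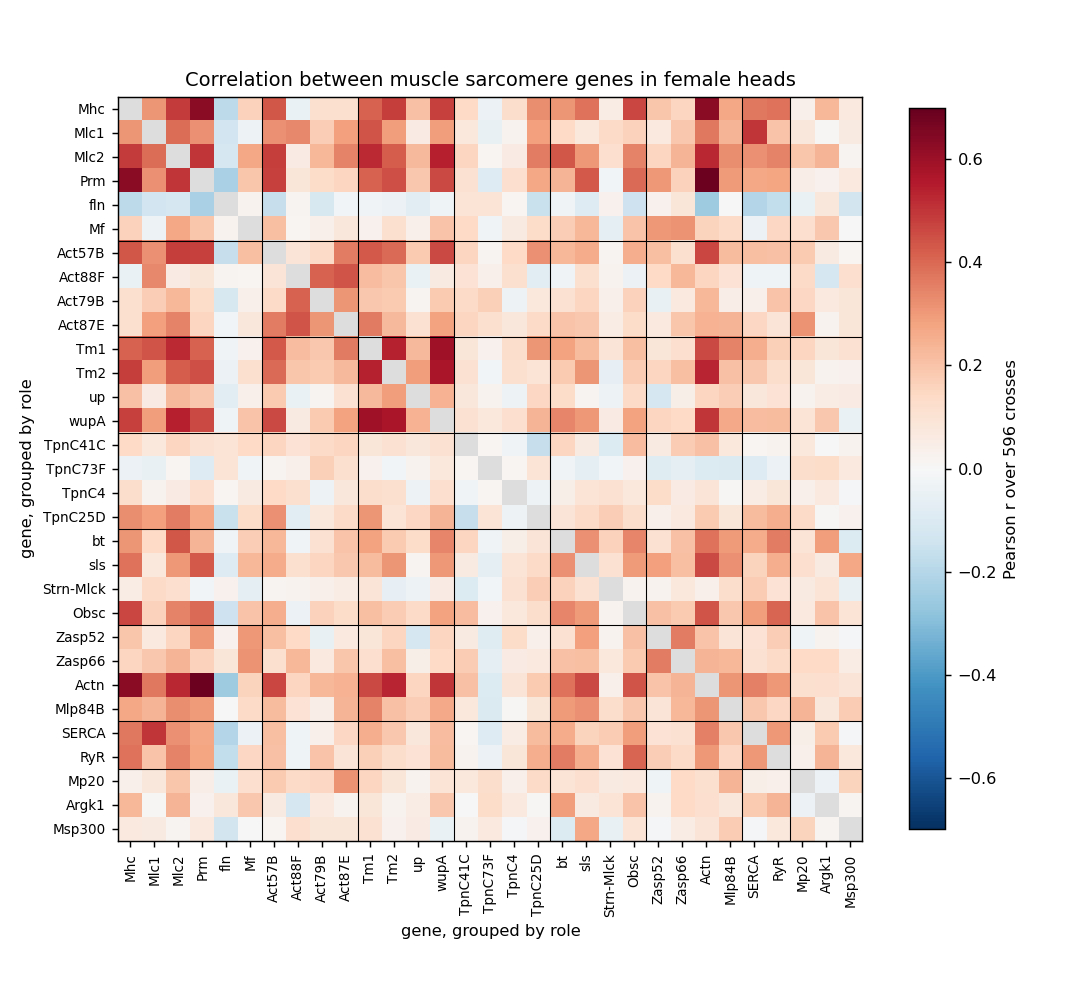
Pearson r between each pair of the 31 muscle sarcomere genes over the 596 crosses, with genes grouped by role along both axes (black lines) and colour running from blue (negative) to red (positive). Mhc, Mlc2, Prm, Act57B, Tm1, Tm2, wupA and Actn form the reddest block, fln has a mostly blue row, TpnC41C, TpnC73F and TpnC4 have pale rows, and TpnC25D is redder with Mlc2 (0.36), Mhc (0.33) and Act57B (0.32), with pairs ranging from -0.25 to 0.69.

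Mhc (CG17927), the single muscle myosin heavy chain gene of the fly, was taken as the common reference for muscle. Of the other 30 sarcomere genes, 24 were positively associated with it, 1 was negatively associated and 5 did not pass the test at an adjusted p under 0.05 (limma, Benjamini-Hochberg over 7421 genes). Across all genes tested, 21.2% were positively and 17.9% negatively associated with Mhc. The median r with Mhc was 0.25 over these 30 genes and 0.002 over all genes tested. An r of at least 0.3 with Mhc was reached by 14 of the 30 genes, against 0.633% of all genes. Ordered by the moderated t, the 7 genes most associated with Mhc out of all 7421 were sarcomere genes: Prm, Actn, Mlc2, Obsc, Tm2, wupA and Act57B. Of the 30 associations 17 had a permutation p of 1e-05 for both r and rho, the smallest that 100000 permutations can give, and leaving out the 2 crosses with the most distant Mhc scores moved r by at most 0.0188.

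The crosses with the extreme Mhc scores show what such an association looks like. In the pA1 x pB2 cross with the highest Mhc score (3.15), Prm scored 2.81, Actn 3.15, Act57B 2.20 and TpnC25D 2.15, whereas fln scored -1.63 and TpnC4 -1.53. In that cross 26 of the 31 genes were above 0. In the pA1 x pB2 cross with the lowest Mhc score (-3.15), Prm, Actn, Tm2 and RyR were also at -3.15, wupA scored -3.09 and Tm1 -2.97. In the same cross fln scored 2.11, bt 2.04, Mp20 1.81 and Act88F 0.918, so that 7 of the 31 genes were above 0. Mhc, by which both crosses were picked, is itself among the 31 genes. The share of all genes above 0 in these crosses was not computed.

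**Figure D2:**
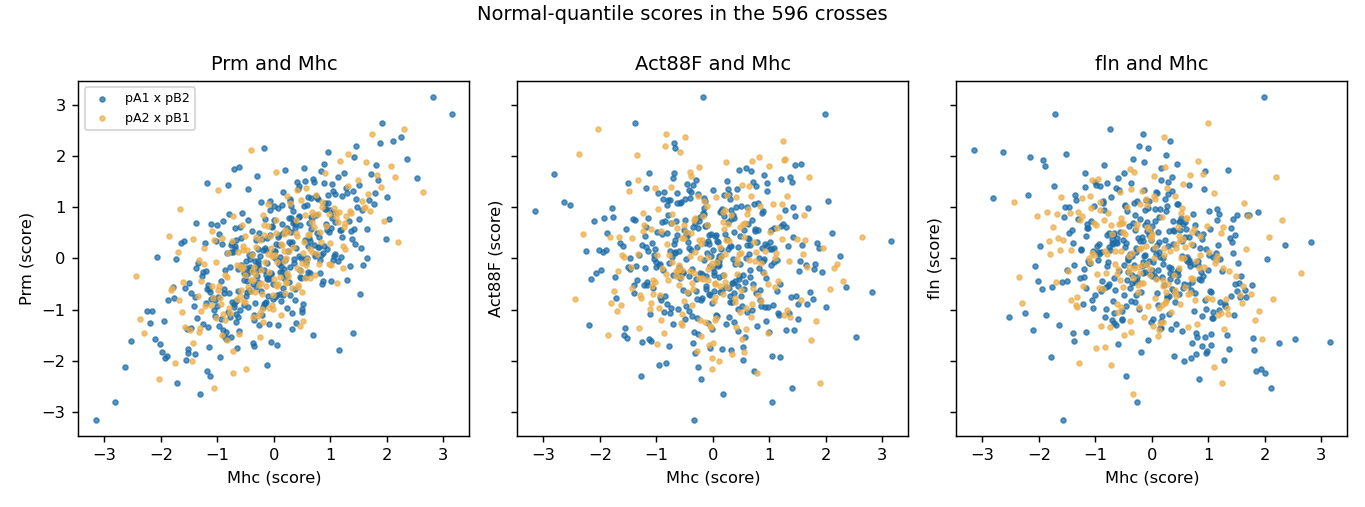
Normal-quantile scores of the 596 crosses for Mhc (horizontal axis) and Prm, Act88F or fln (vertical axes), 1 point per cross, coloured by subpopulation cross. Prm rises with Mhc (r = 0.63), Act88F shows no trend (r = -0.05) and fln is on average lower where Mhc is higher (r = -0.18), in points of both colours.

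Among thick filament genes, Prm (CG5939), which encodes paramyosin of the filament core, had an r of 0.63 with Mhc (95% interval 0.58 to 0.68, rho = 0.60, adjusted p = 4.19e-58 by limma). The r was 0.64 in pA1 x pB2 and 0.63 in pA2 x pB1, and 0.62 when the 2 crosses with the most distant Mhc scores were left out. The regulatory light chain gene Mlc2 (CG2184) had an r of 0.49 (0.43 to 0.55, rho = 0.49, adjusted p = 2.34e-32), and the essential light chain gene Mlc1 (CG5596) had an r of 0.31 (0.24 to 0.38, rho = 0.31, adjusted p = 1.97e-10). The permutation p of r and of rho was 1e-05 for all 3 genes. The 2 light chain genes were themselves associated at r = 0.39 (0.32 to 0.46, adjusted p = 2.05e-19), with 17.4% of all genes positively associated with Mlc1. Myofilin (Mf, CG6803), a thick filament protein of insects, had an r with Mhc of 0.16 (0.08 to 0.24, adjusted p = 0.000769). When 10 further principal components were removed, Mlc1 no longer passed the test with Mhc (r = 0.09, adjusted p = 0.161).

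Flightin (fln, CG7445), which in flies is needed for thick filament assembly in flight muscle, was the 1 sarcomere gene negatively associated with Mhc. Its r was -0.18 (-0.26 to -0.10, rho = -0.17, permutation p = 2e-05, adjusted p = 7.92e-05 by limma). It was -0.22 in pA1 x pB2 and -0.11 in pA2 x pB1, and in the pA2 x pB1 crosses alone it did not pass the test (adjusted p = 0.319), nor with 10 further components removed (r = -0.05, adjusted p = 0.527). The slopes of the subpopulation crosses did not differ past the threshold (difference -0.12 ± 0.08 SE, pA1 x pB2 minus pA2 x pB1, adjusted p = 0.664). With fln as the predictor, none of the other 30 genes was positively associated and 12 were negatively associated, against 8.87% and 15.7% of all genes. Its most negative r was with Actn (-0.25), followed by Prm (-0.23) and the calcium pump gene SERCA (-0.21).

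The muscle actins differed in how they followed Mhc. Act57B (CG10067), an actin of larval and adult body muscles, had an r of 0.43 with Mhc (0.37 to 0.50, rho = 0.42, adjusted p = 4.83e-25). Act79B (CG7478), known from tubular muscles such as those of the leg, and Act87E (CG18290), another actin of body wall muscle, had an r of 0.11 each (adjusted p = 0.0193 for Act79B and 0.016 for Act87E). Act88F (CG5178), the actin of the indirect flight muscle, had an r of -0.05 (-0.13 to 0.04, rho = -0.03, permutation p = 0.269, adjusted p = 0.396). Relative to Act57B, in a test chosen after seeing the data, the slope on Mhc was lower by 0.48 ± 0.05 (SE) for Act88F, 0.32 ± 0.05 for Act79B and 0.32 ± 0.05 for Act87E (adjusted p of at most 2.69e-09). By the same test 99.7% of all genes had a lower slope than Act57B. The r of Act79B with Mhc did not pass the test in pA2 x pB1 alone (adjusted p = 0.448) or with 10 further components removed (0.0503), nor did that of Act87E in pA1 x pB2 alone (0.0526) or pA2 x pB1 alone (0.344).

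Among themselves the actins had another order, with Act88F, Act79B and Act87E closest. The r was 0.44 for Act88F with Act87E (0.37 to 0.50), 0.41 for Act88F with Act79B (0.34 to 0.47) and 0.31 for Act79B with Act87E (0.24 to 0.38). Act57B was associated with Act87E at 0.36 (0.29 to 0.43) and with Act79B at 0.13 (0.06 to 0.21, adjusted p = 0.0108), the second of which was lost in pA1 x pB2 alone (adjusted p = 0.0553) and in pA2 x pB1 alone (0.315). Its r with Act88F was 0.09 (0.01 to 0.17, permutation p = 0.0252), which did not pass the test across all genes (adjusted p = 0.104). Of the 6 actin pairs, 5 were thus called, where the share of all genes positively associated was 7.71% with Act57B as the predictor, 2.65% with Act79B and 12.2% with Act88F. The coding sequences of the actin genes are much alike and probes had to match a transcript exactly but not uniquely. Which probes the actin genes share is not given in the sources used here, so signal from a near-identical copy and joint expression cannot be told apart for these pairs.

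The genes of tropomyosin and of troponins T and I had a median r of 0.42 over their 6 pairs (0.23 to 0.59), against 0.34 over the 6 actin pairs and 0.13 over all pairs of sarcomere genes. The 2 tropomyosin genes had an r of 0.54 with each other (0.48 to 0.59, adjusted p = 9.94e-36), with 12.6% of all genes positively associated with Tm1. Both were closest among the sarcomere genes to wupA (CG7178), which encodes troponin I, at 0.59 for Tm1 (CG4898) and 0.57 for Tm2 (CG4843). With Mhc the r was 0.48 for Tm2, 0.48 for wupA and 0.41 for Tm1. The 95% intervals of these 3 values overlap.

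Troponin T, encoded by up (CG7107), followed the others less. Its r was 0.20 with Mhc (0.13 to 0.28, adjusted p = 5.81e-06), 0.24 with wupA (0.17 to 0.32, adjusted p = 9.24e-07) and 0.29 with Tm2 (0.22 to 0.36, adjusted p = 2.63e-10). With up as the predictor 9.57% of all genes were positively associated, and no sarcomere gene had an r of 0.3 with it. When 10 further principal components were removed, the r of up was 0.01 with Mhc, 0.04 with wupA and -0.02 with Tm2, and none of the 3 passed the test.

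The troponin C genes, which encode the calcium sensor of the thin filament, had a median r of -0.01 over their 6 pairs. None of these pairs was positively associated, and TpnC41C (CG2981) with TpnC25D (CG6514) was negatively associated (r = -0.16, -0.24 to -0.08, rho = -0.15, permutation p = 0.00017, adjusted p = 0.00295). With TpnC41C as the predictor 4.38% of all genes were negatively associated, and the call was lost in pA2 x pB1 alone (r = -0.15, adjusted p = 0.258). With Mhc, TpnC25D had an r of 0.33 (0.25 to 0.40, adjusted p = 7.53e-14), TpnC41C 0.14 (0.06 to 0.22, adjusted p = 0.00264), TpnC4 (CG12408) 0.13 (0.05 to 0.20, adjusted p = 0.00794) and TpnC73F (CG7930) -0.04 (-0.12 to 0.04, adjusted p = 0.435). In a test chosen after seeing the data, the slope on Mhc was lower than that of TpnC25D for each of the other 3 (by 0.37 ± 0.05 SE for TpnC73F, 0.20 ± 0.06 for TpnC4 and 0.19 ± 0.06 for TpnC41C, adjusted p of at most 0.00234), as it was for 95.7% of all genes. With 10 further components removed, TpnC41C (adjusted p = 0.0757) and TpnC4 (0.877) did not pass the test with Mhc, nor did either in pA1 x pB2 alone (0.193 for TpnC41C and 0.122 for TpnC4). TpnC4 did not pass in pA2 x pB1 alone either (r = 0.17, adjusted p = 0.0748). With TpnC73F as the predictor 3 of the other 30 sarcomere genes were positively associated, against 4.11% of all genes, the fewest after fln.

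**Figure D3:**
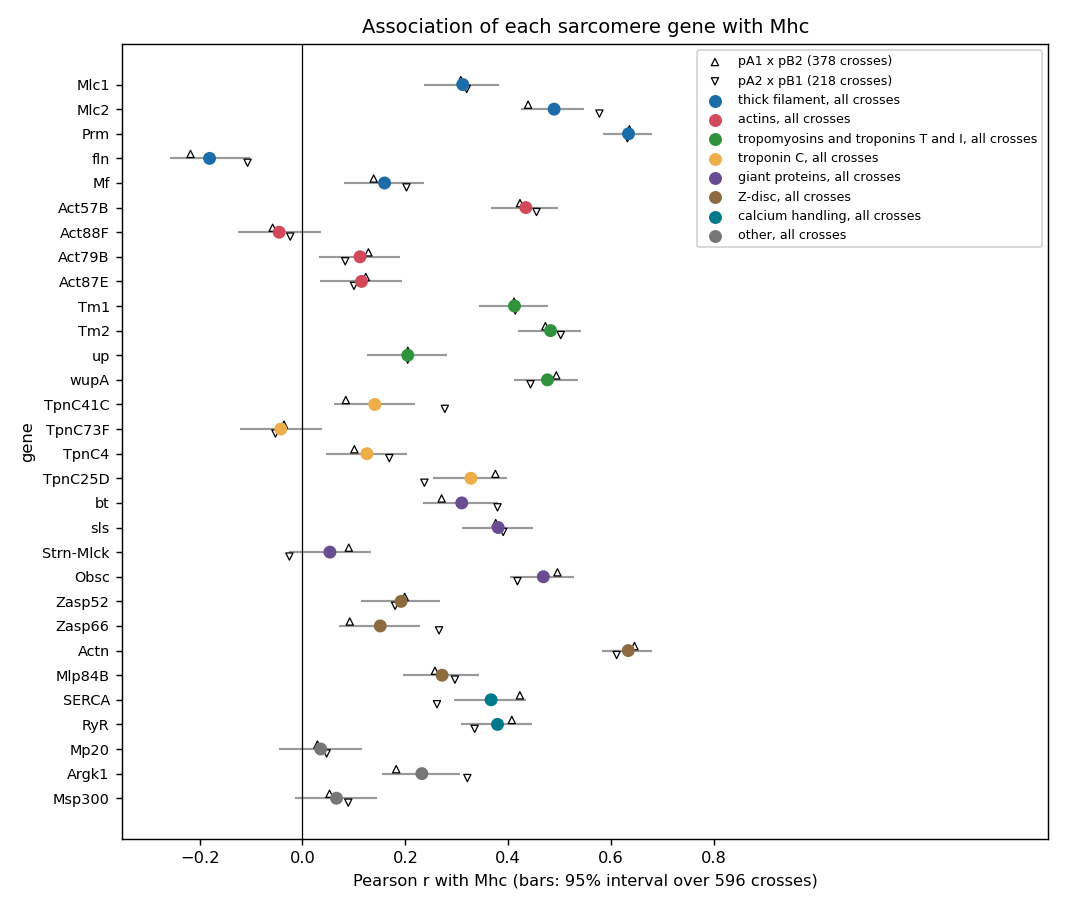
Pearson r of each sarcomere gene with Mhc over 596 crosses (filled circles, coloured by role, with 95% intervals as bars) and within pA1 x pB2 (upward triangles) and pA2 x pB1 (downward triangles). Prm and Actn lie highest at 0.63, fln lies lowest at -0.18, and the intervals of Act88F, TpnC73F, Strn-Mlck, Mp20 and Msp300 include 0.

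The giant proteins that link and space the filaments were associated with Mhc with 1 exception, by gene means. Obscurin (Obsc, CG33519), a giant kinase-like protein of the M-line, had an r of 0.47 (0.40 to 0.53, adjusted p = 1.85e-29). The titin-like gene sls (CG1915) had an r of 0.38 (0.31 to 0.45, adjusted p = 9.02e-19), bt (CG32019), the gene of projectin, had 0.31 (0.24 to 0.38, adjusted p = 2.32e-12), and the r between them was 0.32 (0.25 to 0.39, adjusted p = 2.01e-12), with 9.42% of all genes positively associated with sls. Strn-Mlck (CG44162), which encodes stretchin proteins related to titin and myosin light chain kinase, had an r of 0.05 (-0.03 to 0.13, adjusted p = 0.313). Its closest sarcomere gene was SERCA, at 0.18. These values are for the mean of its 2 rows, of which CG44162-PS passed the test with Mhc (r = 0.10, adjusted p = 0.0325 by limma over all distinct rows).

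At the Z-disc, alpha-actinin (Actn, CG4376), which cross-links actin filaments, had the same r with Mhc as Prm, 0.63 (0.58 to 0.68, rho = 0.62, adjusted p = 4.19e-58), with 0.65 in pA1 x pB2 and 0.61 in pA2 x pB1. The r between Actn and Prm, 0.69, was the highest of all pairs of sarcomere genes. The LIM protein gene Mlp84B (CG1019) had an r of 0.27 with Mhc (adjusted p = 1.07e-09), and the PDZ and LIM domain genes Zasp52 (CG30084) and Zasp66 (CG6416) had 0.19 (adjusted p = 8.36e-05) and 0.15 (adjusted p = 0.0031). Zasp52 did not pass the test in pA2 x pB1 alone (r = 0.18, adjusted p = 0.0641), nor Zasp66 in pA1 x pB2 alone (r = 0.09, adjusted p = 0.195). Zasp52 and Zasp66 were closest to each other among the sarcomere genes (r = 0.36, 0.28 to 0.42, adjusted p = 1.4e-12, with 14.5% of all genes positively associated with Zasp52).

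Both genes of calcium handling were associated with Mhc, the release channel gene RyR (CG10844) at 0.38 (0.31 to 0.45, adjusted p = 1.08e-18) and SERCA (CG3725), the pump that returns calcium to the store, at 0.37 (0.30 to 0.43, adjusted p = 4.56e-17). They were associated with each other at 0.30 (0.23 to 0.38, adjusted p = 5.28e-12), with 21.1% of all genes positively associated with SERCA. With 10 further components removed, the r was 0.10 for RyR with Mhc (adjusted p = 0.0899), 0.06 for SERCA with Mhc (adjusted p = 0.451) and 0.04 for SERCA with RyR (adjusted p = 0.635). The closest sarcomere gene to SERCA was Mlc1, at 0.50.

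Of the remaining genes, arginine kinase (Argk1, CG32031), which buffers ATP in muscle, had an r of 0.23 with Mhc (0.15 to 0.31, adjusted p = 4.26e-07). The calponin-like gene Mp20 (CG4696) had 0.04 (-0.05 to 0.12, adjusted p = 0.517), and Msp300 (CG42768), a nesprin that anchors muscle nuclei, had 0.07 (-0.01 to 0.15, adjusted p = 0.241). Mp20 was closest to Act87E among the sarcomere genes (0.31) and Msp300 was closest to sls (0.27).

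A difference between the subpopulation crosses in the slope on Mhc was called for 0 of the 30 genes and 0 of 7421 genes at an adjusted p under 0.05 (limma, product of Mhc and subpopulation cross, 0% called). At an unadjusted p under 0.05 there were 690 genes (9.3%), of which 2 were sarcomere genes: Mlc2 (r = 0.44 in pA1 x pB2 and 0.58 in pA2 x pB1, p = 0.0291, adjusted p = 0.497) and SERCA (0.42 in pA1 x pB2 and 0.26 in pA2 x pB1, p = 0.0434, adjusted p = 0.524). All 24 positively associated genes had a positive r in both subpopulation crosses. They were picked on the same crosses pooled, so this sign is largely set by the selection and is no replication. Fitted alone, pA1 x pB2 gave 20 positive calls against 16.5% of all genes, and pA2 x pB1 gave 20 against 7.96%.

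Act88F was then set as the predictor, to ask which genes followed the flight muscle actin. Of the other 30 sarcomere genes, 12 were positively associated with it, 1 was negatively associated and 17 did not pass the test. Across all genes 12.2% were positively and 8.37% negatively associated with Act88F. An r of at least 0.3 was reached by 3 of the 30 genes (Act87E, Act79B and Mlc1), against 0.216% of all genes. For Act87E and Act79B, signal from a near-identical copy and joint expression cannot be told apart, as said above. The actin genes Act5C (r = 0.23, adjusted p = 1.5e-06) and Act42A (0.20, adjusted p = 3.7e-05), outside the set, were also positively associated with Act88F. After Act87E and Act79B, the highest values among the sarcomere genes were those of Mlc1 (r = 0.34, 0.26 to 0.40, adjusted p = 2.25e-11), Zasp66 (0.23, adjusted p = 1.34e-05), Tm1 (0.22, adjusted p = 0.000211) and Tm2 (0.19, adjusted p = 0.00016). Argk1 was the negatively associated gene (-0.12, adjusted p = 0.0269), a call that was lost in several alternatives.

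Of the 3 genes known for flight muscle, fln was called with neither of the others. The r of fln was 0.02 with Act88F (-0.06 to 0.10, permutation p = 0.654, adjusted p = 0.788) and 0.01 with TpnC4 (-0.07 to 0.09, permutation p = 0.757, adjusted p = 0.86). Act88F with TpnC4 had an r of 0.11 (0.03 to 0.19, rho = 0.09, permutation p = 0.00803, adjusted p = 0.0381). That call was lost with ranks (adjusted p = 0.109), with the cross median as covariate (0.0648), with 10 further components removed (r = 0.03, adjusted p = 0.72), in the pA1 x pB2 crosses alone (0.0576) and in the pA2 x pB1 crosses alone (0.634).

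**Figure D4:**
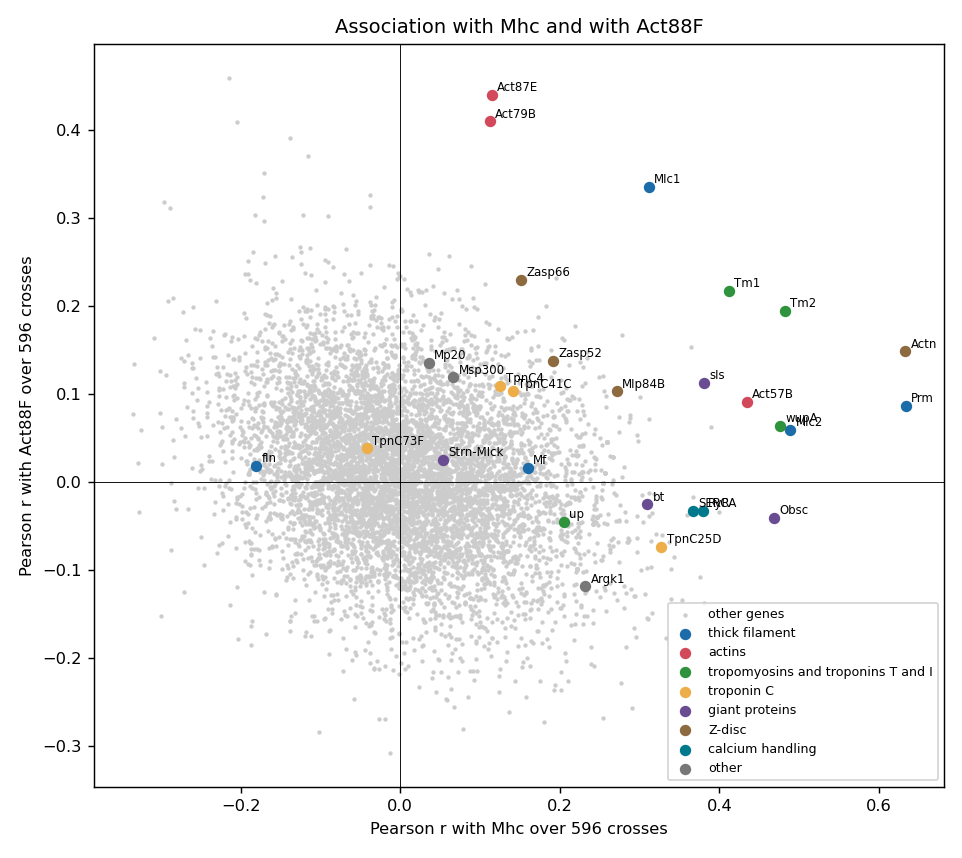
Pearson r with Mhc (horizontal axis) and with Act88F (vertical axis) over 596 crosses for all genes (grey points) and for the sarcomere genes other than these 2 (coloured by role and named). Act87E (0.11 and 0.44) and Act79B (0.11 and 0.41) stand high on the Act88F axis, and Prm (0.63 and 0.09) and Actn (0.63 and 0.15) far along the Mhc axis. Mlc1 (0.31 and 0.34), the mean of 2 rows that differ in this, is high on both. For the actins, signal from a near-identical copy and joint expression cannot be told apart.

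With Mhc and Act88F in 1 model, 24 of the remaining 29 sarcomere genes were positively associated with Mhc at a given Act88F score and 16 with Act88F at a given Mhc score, against 21.1% and 12.3% of all 7420 genes. On the other side 1 gene was negatively associated with each (fln with Mhc and Argk1 with Act88F), against 17.7% and 8.3% of all genes. Both slopes were positive and past the threshold in 14 genes, a count for which the share over all genes was not computed. Mlc1 had a partial r of 0.35 with Mhc and 0.37 with Act88F, Tm2 had 0.50 and 0.25, and Actn had 0.65 and 0.23. The Mlc1 value was the mean of 2 rows that had an r of 0.31 with each other. Row CG5596-PA had an r of 0.37 with Act88F and 0.19 with Mhc, whereas CG5596-PB had 0.18 with Act88F and 0.31 with Mhc. Act87E had 0.15 with Mhc and 0.45 with Act88F, where the limit on near-identical actin copies applies. Obsc, RyR, SERCA, bt and TpnC25D were associated with Mhc and had a partial r with Act88F between -0.06 and -0.01.

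Several genes gave different values for different transcripts. The 11 genes with several distinct rows had 67 such rows, of which 55 were positively and 0 negatively associated with Mhc, against 20.8% and 18.6% of all distinct rows (limma, 9141 rows). Rows of 1 gene are not independent, so a gene with many rows counts many times. The median r between rows was 0.95 for Mf, 0.78 for Zasp52, 0.66 for Zasp66 and 0.52 for Tm1. Rows of wupA (0.25 to 0.46), Argk1 (0.20 to 0.24) and Zasp52 (0.13 to 0.22) were all called. Tm1 had 13 distinct rows, from r = -0.01 for CG4898-PH (adjusted p = 0.837) and 0.02 for CG4898-PC (adjusted p = 0.785) to 0.47 for CG4898-PS (adjusted p = 3.54e-27) and 0.49 for CG4898-PP (adjusted p = 2.14e-30). Tm1 is known to encode both muscle and cytoplasmic tropomyosins, but the files do not say which row is which.

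In Msp300 a single row stood apart from the rest. The row CG42768-PB had an r of 0.41 with Mhc (adjusted p = 1.67e-20), whereas the other 5 rows lay between -0.06 and 0.03 and did not pass the test. The gene mean of 0.07 thus hid 1 row that followed Mhc. For the 4 sarcomere genes with exactly 2 distinct rows the difference of the rows was fitted on Mhc directly, a test chosen after seeing the data. Strn-Mlck differed between its rows (slope difference 0.10 ± 0.02 SE, r = 0.10 for CG44162-PS and 0.0001 for CG44162-PU, adjusted p = 0.000208). Mlc1 (0.19 for CG5596-PA and 0.31 for CG5596-PB, adjusted p = 0.0818), Tm2 (adjusted p = 0.492) and SERCA (adjusted p = 0.671) did not pass that test, which called 16.1% of all genes in the table with 2 distinct rows.

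**Figure D5:**
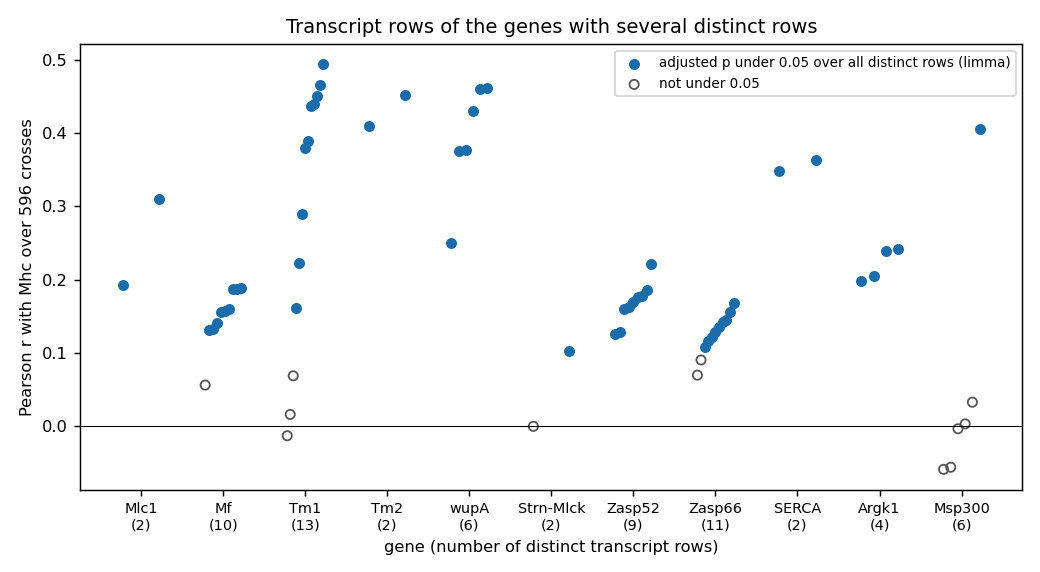
Pearson r with Mhc over 596 crosses (vertical axis) for every distinct transcript row of the 11 sarcomere genes with several rows (horizontal axis, number of rows in brackets), filled where the adjusted p was under 0.05. Rows of Tm1 spread from -0.01 to 0.49, and 1 row of Msp300 stands at 0.41 with its other 5 rows near 0.

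The genes outside the set that stood closest to Mhc were led by RFeSP, the Rieske iron-sulfur subunit of complex III (r = 0.41), COX5A, a subunit of cytochrome c oxidase (0.40), Mpcp1, a mitochondrial phosphate carrier (0.39), and CG33521 (0.38), followed by Mitofilin (0.38), tn (0.37), CG18304 (0.36), Fum1 (0.36), ND-B22 (0.36) and beta-Spec (0.35). The lowest were Oli (-0.34), CkIIbeta and Mtl (-0.33 each), GstE2 (-0.33) and fkh (-0.31). Closest to Act88F outside the set were Cnx14D (0.46), Tango8 (0.41), Lim3 (0.39), betaTub60D (0.37) and CG13310 (0.35). With 10 further components removed, RFeSP had an r of 0.115 with Mhc, COX5A 0.119 and Mpcp1 0.319. The 10 closest to Mhc then lay between -0.07 (ND-B22) and 0.32, the 5 lowest between -0.20 and -0.05, and the 5 closest to Act88F between 0.27 and 0.45.

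Other muscle genes were taken from lists of their known roles, with the same 21.2% and 17.9% of all genes as the background. Of 5 genes of thin filament ends and the Z-disc 2 were positively and 1 negatively associated, led by sals, which lengthens thin filaments (r = 0.30, adjusted p = 1.62e-11). Of 7 attachment genes 3 were positively and 1 negatively associated, led by the integrin gene if (0.22, adjusted p = 6.93e-07), and of 6 other calcium genes 3 were positively and 1 negatively associated. Of 3 regulators 0 were positively and 1 negatively associated with Mhc (mbl, which controls splicing in muscle, at -0.13, adjusted p = 0.00881), and 1 was positively and 1 negatively associated with Act88F, against 12.2% and 8.37% of all genes. These were Mef2, a main transcription factor of muscle (0.16, adjusted p = 0.00168), and bru1, another splicing factor (-0.16, adjusted p = 0.00145), while Mef2 had an r of 0.001 with Mhc (adjusted p = 0.989). Of 2 chaperones 1 was positively associated with Mhc (l(2)efl at 0.10, adjusted p = 0.0379, beside unc-45 at 0.03, adjusted p = 0.562), and the 1 glutamate receptor gene of the neuromuscular junction with a row, GluRIIA, was negatively associated (-0.13, adjusted p = 0.0071). With Act88F the positive and negative calls were 0 and 0 for thin filament ends and the Z-disc and 2 and 0 for attachment. They were 0 and 1 for the other calcium genes, 1 and 0 for chaperones and 0 and 0 for GluRIIA. The difference in these counts from the sarcomere genes was not tested.

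Markers of other cell types were set beside the sarcomere genes. Of 6 photoreceptor markers 1 was positively and 1 negatively associated with Mhc (r from -0.11 to 0.10), of 5 neuron markers 2 and 1 (-0.23 to 0.17), of 3 glia markers 1 and 0 (-0.08 to 0.22), of 5 fat body markers 3 and 1 (-0.14 to 0.18) and of 2 blood cell markers 1 and 0, against the same 21.2% and 17.9% of all genes. None of the 4 germ line markers had a row. Of 11 listed photoreceptor markers only 6 had a row, and with Act88F 4 of these were negatively and 0 positively associated. The lowest r was -0.22 for norpA, the phospholipase of phototransduction (adjusted p = 7.15e-06). Neuron markers gave 1 positive and 2 negative calls with Act88F, and fat body markers gave 0 and 1. Glia markers gave 0 and 0, and blood cell markers 1 and 0. Across all genes 12.2% were positively and 8.37% negatively associated with Act88F. The part of these cell types in the associations of the sarcomere genes was not tested.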

How the data were processed

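Heads of F1 females were hybridised to NimbleGen arrays. The authors corrected background, normalized and summarised probes (oligo, RMA), dropped probes affected by variants and transcripts with few probes, averaged transcripts of a gene whose pairwise r was at least 0.95, and turned every transcript into normal quantiles before and after regressing out subpopulation and 10 principal components. The deposited values are therefore a score with no log2 scale, and removal of the components can take out variation shared by many genes. For mapping, the authors also left out transcripts with expression under a level at which the replicate preparations were less alike. The 11064 transcript rows used here equal in number the transcripts they tested. The number of crosses limits the precision.

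Each gene (mean of its distinct rows) was fitted on Mhc, on Act88F, on both, and on Mhc with its product with subpopulation cross, with limma 3.58.1 in R 4.3.3, adjusted over all genes. With limma's variance moderation, a gene averaged over rows is tested against a variance larger than its own. Pairs were given with Pearson r, its 95% interval by Fisher's transformation, Spearman rho and two-sided p from 100000 permutations (numpy 2.4.6, scipy 1.17.1). Those were 30 pairs with Mhc and 22 other named pairs, and adjusted values are over all genes. Symbols were matched through the Release 6 gene table (GCF_000001215.4) for all 7422 genes. The genes named were every sarcomere gene with a row, the 10 highest and 5 lowest outside genes for Mhc, the 5 highest for Act88F, and for each other list its counts and leading genes. Some further genes were named after their values were seen. On data simulated for the fit on Mhc, 97 of 100 genes with an r of 0.2 and 100 of 100 with 0.4 were called, beside 12 false calls. Each gene was shuffled on its own there, which removes the correlation between genes. The product with subpopulation cross was simulated only at a slope difference of 0.6 (16 false calls). That is larger than any sarcomere gene showed, so power for smaller differences is not known from it. The members and lists were chosen with earlier results of these data known. Alternatives were ranks, 10 further components, the cross median as covariate, bins of line number, each subpopulation cross alone, distinct rows, and other predictors. Every deposited column belonged to a listed cross. The table has 1 column per cross, so p-values measure the spread between crosses.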

Additional observations from a re-analysis of the deposited data

How the results depend on the processing

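Of the 30 associations with Mhc, none changed its call with ranks, with the cross median as covariate, with bins of line number or when the 2 crosses with the most distant Mhc scores were left out. Calls were lost for 4 in pA1 x pB2 alone, 5 in pA2 x pB1 alone and 8 with 10 further components removed, a step that by its construction takes out variation shared by many genes, while Msp300 gained its call there (r = 0.17). With 10 further components 0 sarcomere genes were negatively associated with Mhc, alone and in the joint fit, as in pA2 x pB1 alone. Over all genes, 3.4% were positively and 4.16% negatively associated with Mhc with 10 further components, 7.96% and 4.81% in pA2 x pB1 alone and 13% and 10.1% with Mlc2 in place of Mhc, beside 21.2% and 17.9% as reported. For Act88F these shares were 6.91% and 3.48% with 10 further components and 1.56% and 0.97% in pA2 x pB1 alone, where 3 sarcomere genes were positively associated, beside 12.2% and 8.37% as reported. The negative association of Argk1 with Act88F left 0 negative calls with 10 further components, line number bins, pA1 x pB2 or pA2 x pB1 alone and without the 2 farthest crosses, and 0 in the joint fit with ranks, 10 further components or line number bins. With fln in place of Act88F, 0 sarcomere genes were positively and 12 negatively associated, with 15.7% of all genes negatively associated. With Prm in place of Mhc, an alternative chosen after seeing the data, 23 sarcomere genes were positively associated, against 20.7% of all genes. When each distinct row was fitted, 26 sarcomere genes had a row positively associated with Mhc, against 22% of all genes. The median r of the sarcomere pairs was 0.13 in pA1 x pB2, 0.15 in pA2 x pB1 and 0.10 with 10 further components.

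Signs changed only for values near 0 that did not pass the test, and for up with Tm2. With 10 further components the r was 0.0198 for Act88F with Mhc, 0.00377 for TpnC73F with Mhc, -0.0211 for Strn-Mlck with Mhc, -0.0212 for TpnC41C with TpnC73F, 0.0286 for TpnC41C with TpnC4 and -0.0175 for up with Tm2. In pA1 x pB2 it was 0.0123 for TpnC41C with TpnC4 and -0.00265 for fln with TpnC4. In pA2 x pB1 it was -0.0254 for Strn-Mlck with Mhc, -0.107 for TpnC73F with TpnC4 and -0.0289 for fln with Act88F. For fln it was -0.011 with Act88F and -0.0163 with TpnC4 under ranks, and -0.0046 with Act88F and -0.000632 with TpnC4 without the 2 farthest crosses. The cause of these changes was not tested. No paired analysis was possible because the table holds 1 column per cross and the labels give no replicate numbers. Signal over background is not kept in the scores.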

Other observations

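Genes of energy metabolism were set beside both predictors. Of 9 glycolysis genes 7 were positively associated with Mhc (median r 0.24, led by Eno at 0.25 and Pglym78 at 0.25), against 21.2% of all genes, and none was positively and 3 were negatively associated with Act88F. Of 63 genes picked by symbols of the respiratory chain after the data were seen, 47 were positively and 2 negatively associated with Mhc (median r 0.18). With Act88F 1 was positively and 24 were negatively associated (median r -0.07), against 12.2% and 8.37% of all genes. The symbols took in genes such as Sdhaf3 and SdhCL, whose part in the chain was not checked. Neither list was refitted with 10 further components removed, where 3.4% of all genes were positively associated with Mhc. There RFeSP had an r with Mhc of 0.115, COX5A 0.119 and ND-B22 -0.0695, all among the outside genes closest to Mhc.

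Some sarcomere genes were closer to a gene outside the set than to any of their own partners, which was noticed after the values were seen and was not tested further. The closest outside gene was picked from all other genes of the table, against only 30 sarcomere genes. Those with the highest r to an outside gene are given here. The same held for fln, Mf, Act88F, TpnC41C, TpnC73F, TpnC25D, bt, Strn-Mlck, Zasp66, Mlp84B, Mp20 and Argk1. TpnC4 had an r of 0.70 with Eig71Ei (0.67 in pA1 x pB2, 0.75 in pA2 x pB1, and 0.52 with 10 further components removed), against at most 0.14 with any sarcomere gene. The r of up was 0.65 with CG11458 (0.72 in pA1 x pB2, 0.52 in pA2 x pB1, and 0.64 with 10 further components removed), against at most 0.29 with any sarcomere gene. Neither partner lies on the chromosome arm of its sarcomere gene in the Release 6 gene table. Msp300 had an r of 0.52 with elav, a marker of neurons, and 0.09 with 10 further components removed.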
